A study of Drosophila melanogaster with 7 samples.

Results

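The glutathione S-transferase genes of Drosophila melanogaster were followed across single cells of midgut tumors. The genes were chosen by name, as the features whose FlyBase symbol starts with GstD, GstE, GstO, GstS, GstT or GstZ, which gave 35 of 17619 features: 11 GstD, 14 GstE, 3 GstO, 1 GstS, 4 GstT and 2 GstZ genes. Glutathione S-transferases join the tripeptide glutathione to reactive, electrophilic compounds and so make them soluble for export, and several of them also reduce peroxides or carry out isomerisations. The letters name the classes Delta, Epsilon, Omega, Sigma, Theta and Zeta, of which Delta and Epsilon are expanded in insects. In the fly gut GstD1 is widely used as a readout of CncC, the fly counterpart of the mammalian regulator Nrf2, and detoxification genes of this kind are induced by oxidants and xenobiotics.

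Transcripts were counted in 7 droplet libraries of tumors of 1 genotype. Tind1 to Tind6 were made from 1 tumor each, and Tgrp from a group of 6 tumors. The flies came from a cross that brings together heat-shock flippases (HS-flp and HS-mflp5), the progenitor driver esg-gal4 with UAS-flybow, and FRT82B chromosomes that carry Tub-Gal80 or the alleles Apc2N175K and ApcQ8, with UAS-RasV12. After a heat shock of adult flies at 37 °C for 2 h, 2 to 3 days after they eclosed, recombined cells lose Gal80, become homozygous for the mutant alleles of both Apc genes and express RasV12 wherever esg-gal4 is active, and tumors were taken at least 21 days later. All the libraries share these alleles and this treatment, so every test below compares cells of the same tumors, levels are set side by side between tumors without a test, and normal gut was not analysed here. Per the study's list of samples, Tind3 was the oldest tumor, by several days, and the other tumors were about as old as each other, so age and tumor cannot be told apart. Since RasV12 depends on esg-gal4, a driver of stem cells and enteroblasts, the transgene need not be on in every cell of a tumor.

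Cells with 100 to 2000 detected genes and at most 15% of their transcripts from mitochondrial genes were kept, 7998 of 9914 in all. Depth differed between libraries, with 180582 to 5133789 transcripts in the kept cells and a median of 317 to 2384 transcripts per cell. A transcript here is a unique molecular identifier (UMI), and levels are UMIs per 1000000 UMIs (CPM) of all kept cells of a library. The method counts 1 tag at the 3′ end of a transcript, so levels can be set side by side between genes without dividing by length. Tind4 and Tind5 had 116 cell barcodes in common, while no other 2 libraries had more than 3, and leaving out the 99 kept Tind5 cells concerned changed the call of no member in any comparison. The summed level of the 8 stem cell and enteroblast markers was 516 to 1111 CPM in Tind1 to Tind6, that of the 10 enterocyte markers 110 to 388 CPM, that of the 10 enteroendocrine markers 10.1 to 489 CPM, that of the 8 visceral muscle markers 1.64 to 20.3 CPM, that of the 6 hemocyte markers 59.3 to 143 CPM, that of the 7 fat body markers 0.822 to 21.9 CPM and that of the 6 Malpighian tubule markers 5.44 to 44.7 CPM. The enteroendocrine sum was high in Tind2 and Tind5 and low in the other tumors. Of the enterocyte markers LManVI had no UMI in any library, and the digestive protease genes alphaTry, Jon65Aiii and Jon65Aiv had 95, 211 and 56 UMIs in Tind2 and 50, 24 and 22 in Tind5, against 0 to 1 in the other single tumors.

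The members lie in a few clusters of the genome (release 6 assembly, Ensembl release 115 annotation). All 11 GstD genes lie on chromosome arm 3R between positions 12364776 and 12385624, with GstD10, GstD9 and GstD1 on the minus strand and GstD2 to GstD8 and GstD11 on the plus strand. GstD2 (FBgn0010038) spans 12371971 to 12372704 and GstD5 (FBgn0010041) spans 12375733 to 12376572 of that arm, with GstD3 and GstD4 between them. GstE1 to GstE9 lie in a row on the plus strand of arm 2R between 18398393 and 18409835. These genes arose by duplication and share sequence, and reads that fitted 2 copies equally well were not counted for either, so the split between near copies is uncertain.

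The Delta class made up most of the family's transcripts in every library. It held 60.8% to 87.5% of all glutathione S-transferase UMIs in the 6 single tumors and 74.7% in Tgrp, while the Epsilon class held 7.67% to 22.8% in the single tumors. The family as a whole stood at 8674 CPM in Tind1, 1760 CPM in Tind2, 9370 CPM in Tind3, 4229 CPM in Tind4, 2706 CPM in Tind5 and 3305 CPM in Tind6, a mean of 5007 ± 3219 CPM (SD, n = 6 tumors), and at 3608 CPM in Tgrp. Tind1 and Tind3 were the high tumors and Tind2 the low one. That difference between tumors was carried by the Delta class, which spanned 1084 to 7830 CPM, a 7.23-fold range. The Epsilon class spanned 390 to 825 CPM, a 2.12-fold range, and the Theta class 77.6 to 111 CPM, a 1.43-fold range. In bulk sums of this kind, fewer cells with a transcript and less of it per cell cannot be told apart, so the share of cells is given below at equal depth.

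GstD1, an abundant and broadly expressed Delta enzyme, was the highest member on average. It had 3277 CPM in Tind1, 691 CPM in Tind2, 4308 CPM in Tind3, 1870 CPM in Tind4, 892 CPM in Tind5, 1352 CPM in Tind6 and 1565 CPM in Tgrp. GstD2, a Delta enzyme encoded a few kilobases away, was as high as GstD1 in Tind1 but far below it in Tind2 and Tind5. It had 3532 CPM in Tind1, 119 CPM in Tind2, 2359 CPM in Tind3, 557 CPM in Tind4, 129 CPM in Tind5, 408 CPM in Tind6 and 678 CPM in Tgrp, a 29.6-fold range over the single tumors. The lowest value rests on 145 UMIs in Tind2, with an exact Poisson interval of 101 to 140 CPM, and that of Tind5 on 71 UMIs, with an interval of 101 to 162 CPM. Tind2 and Tind5 therefore did not differ beyond their counting error, and all other neighbours in the order Tind1, Tind3, Tind4, Tind6, Tind5 and Tind2 had intervals that did not overlap. Intervals and limits of this kind cover counting error only.

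GstD5, another Delta gene of the same cluster, followed another order of tumors. It had 371 CPM in Tind1, 131 CPM in Tind2, 581 CPM in Tind3, 190 CPM in Tind4, 344 CPM in Tind5, 136 CPM in Tind6 and 194 CPM in Tgrp. Tind5, which was next to lowest for GstD2, was among the 3 highest for GstD5, and in Tind2 and Tind5 the level of GstD5 was above that of GstD2. The range of GstD5 over the single tumors was 4.45-fold. GstD9 had a range of 5.79-fold, with 271 CPM in Tind3 and 46.9 CPM in Tind2, and its tumors were ordered like those of GstD2 in 14 of 15 pairs of tumors. GstD1 and GstE8 also followed GstD2 in 14 of 15 pairs, and GstT1 and GstO2 in 7 of 15, over the same 6 tumors. Since these members come from the same 6 libraries, the counts of pairs are a description.

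The steadiest of the 15 members with at least 300 UMIs, by their SD relative to the mean, were GstE12, with 118 to 184 CPM, and GstE1, with 92.9 to 172 CPM. GstT1 spanned 44.4 to 83.4 CPM, GstO2 53.7 to 96.5 CPM and GstD3 72.4 to 159 CPM. GstE6 stood at 167 to 208 CPM in 5 tumors and at 93.7 CPM in Tind2. GstS1, the only Sigma enzyme of the fly, which acts on products of lipid peroxidation, spanned 39.5 CPM in Tind2 to 216 CPM in Tind3. GstO3, an Omega enzyme, spanned 92.2 CPM in Tind6 to 299 CPM in Tind3. GstE7, GstE8 and GstE9 were the lowest of the 15, with means of 35.0 ± 23.9, 41.5 ± 21.8 and 42.4 ± 23.8 CPM (SD, n = 6). In the plot of levels by library, Tind2 was the lowest tumor for GstD1, GstD2, GstD3, GstD5, GstD9, GstE1, GstE6, GstE8, GstE12, GstS1 and GstT1.

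**Figure D1:**
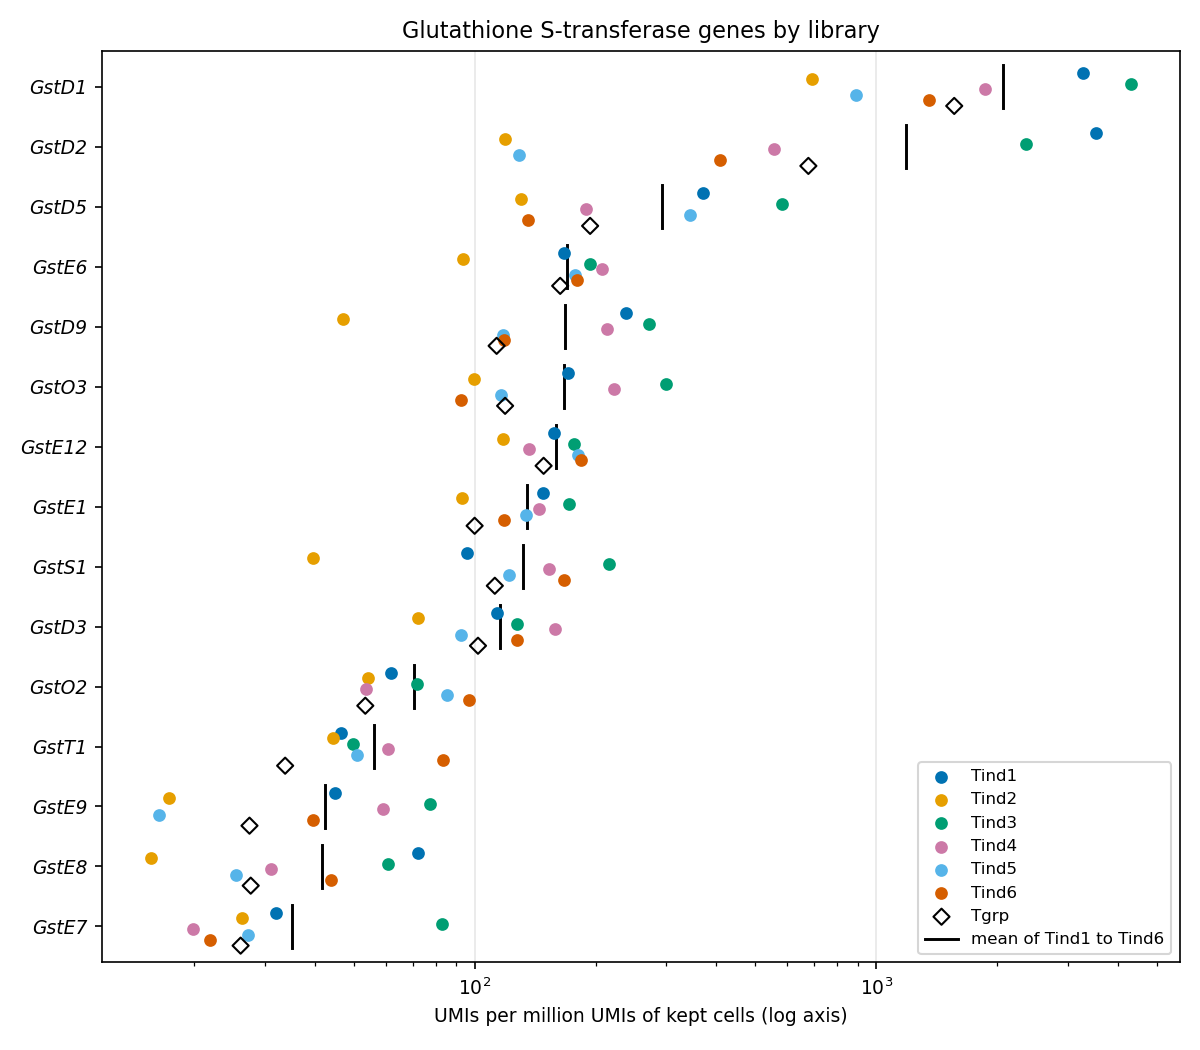
Level of the 15 glutathione S-transferase genes with at least 300 UMIs, in UMIs per 1000000 UMIs (CPM) of kept cells on a log axis, with 1 colored point per single tumor, an open diamond for Tgrp and a bar at the mean of Tind1 to Tind6. GstD2 runs over a 29.6-fold range, while GstE12 stays between 118 and 184 CPM.

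The other 20 members had fewer than 300 UMIs over the 7 libraries. GstD10, with 295 UMIs, fell just short, and GstD6 had 205 UMIs, with 72 CPM in Tind3 and at most 30.8 CPM in the other tumors. GstD7, GstD8, GstD11, GstE2, GstE4, GstE5, GstE10, GstT4, GstZ1 and GstZ2 were at 0 UMIs in at least 1 library. GstE14, known as noppera-bo for its part in making the steroid hormone ecdysone, had no UMI in any library, and the 2922 cells of Tgrp allow a share of cells with a UMI of up to 0.103% at 300 UMIs per cell. The Zeta class, which works in the breakdown of tyrosine, reached at most 5.44 CPM.

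To put all cells on the same footing, a random 300 UMIs were taken from each of the 7694 kept cells that held as many, and a cell was called positive for a gene with at least 1 UMI in the draw. Tind3 lost 181 of its 392 cells to this limit, Tind5 87 of 651 and Tind6 36 of 309, and the other libraries lost none. At this depth GstD1 was found in 48.3% of the cells of Tind1, 16.6% of those of Tind2, 65.9% of those of Tind3 and 30.3% of those of Tind4, and in 21.3% for Tind5, 30.0% for Tind6 and 30.0% for Tgrp. GstD2 was found in 29.7% of the cells of Tind1 (exact 95% interval 27.8% to 31.8%), against 49.0% at full depth. The share was 2.70% in Tind2 (1.74% to 3.99%), 24.6% in Tind3 (19.0% to 31.0%) and 7.40% in Tind4 (5.65% to 9.48%). It was 3.55% in Tind5 (2.18% to 5.42%), 9.16% in Tind6 (6.01% to 13.2%) and 8.42% in Tgrp (7.44% to 9.48%).

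GstD2 was concentrated in few cells. Positive cells of Tind1 held a mean of 4.07 GstD2 UMIs of 300, and the richest cell held 44. In that tumor the 10% of cells with most GstD2 held 73.0% of its drawn UMIs, against 48.6% for GstD1. The share of GstD5-positive cells was 7.36% in Tind1 and 3.15% in Tind2. It was 11.4% in Tind3, 5.06% in Tind4, 6.21% in Tind5 and 3.30% in Tind6, with 4.48% in Tgrp. Positive cells held a mean of 1.11 to 1.75 GstD5 UMIs in the single tumors, so a GstD5-positive call rests on few UMIs. No cell type in these tumors is known to lack these enzymes, so the share that free RNA alone would give was not measured.

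Ldh encodes lactate dehydrogenase, which turns pyruvate from glycolysis into lactate, and the study asked whether tumors hold cells that ferment and cells that respire. Cells were therefore divided by Ldh in the draw. Ldh-positive cells were 47.4% of Tind1, 27.6% of Tind2, 37.9% of Tind3, 24.8% of Tind4, 25.7% of Tind5 and 37.7% of Tind6. The full counts of each class were summed per tumor and compared within tumors (edgeR's quasi-likelihood test with the tumor as a block, Benjamini-Hochberg adjustment over all genes tested, adjusted p under 0.05). Of the 35 members 15 passed the filter on low counts, and 9 of them were higher in Ldh-positive cells, where 10.2% of the 3161 genes tested were higher. Only GstE12 was lower, where 5.19% of all genes tested were lower. Some members passed this filter mainly through the Ldh-positive sums, as given below. Without the filter, which brings in rare genes, 8 of the 34 members with a UMI were higher, against 328 of all 11100 genes. In that fit 1 member was lower, against 309 of all genes. The median log2 fold change there was 0.13 over the 34 members and -0.12 over all genes.

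GstD2 differed most among the members. It stood at 5420 CPM in Ldh-positive cells of Tind1 against 1760 CPM in Ldh-negative cells of that tumor, at 248 against 67.9 CPM in Tind2, and at 5014 against 690 CPM in Tind3. In Tind4 it stood at 1123 CPM in Ldh-positive cells against 294 CPM in Ldh-negative cells, in Tind5 at 170 against 110 CPM, and in Tind6 at 602 against 261 CPM. It was higher in Ldh-positive cells in 6 of 6 tumors, most in Tind3 and least in Tind5, although the levels of the tumors themselves overlapped. The log2 fold change was 1.88 ± 0.14 (SE, adjusted p = 1.34e-10, edgeR). In Tgrp, which entered no test, GstD2 stood at 1809 CPM in Ldh-positive cells against 284 CPM in Ldh-negative cells.

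GstD1 was also higher in Ldh-positive cells in 6 of 6 tumors, but by less, with 2562 CPM on average against 1774 CPM in Ldh-negative cells and a log2 fold change of 0.57 ± 0.08 (SE, adjusted p = 1.69e-05, edgeR). GstD9 was higher in 6 of 6 tumors, with a log2 fold change of 0.74 ± 0.16 (adjusted p = 0.00201, edgeR), and GstD3 in 5 of 6, with 0.60 ± 0.17 (adjusted p = 0.0156, edgeR). GstD5 was higher in 4 of 6 tumors, with 369 CPM on average in Ldh-positive cells against 222 CPM in Ldh-negative cells and a log2 fold change of 0.62 ± 0.16 (adjusted p = 0.00950, edgeR). In Tind4 GstD5 had 179 CPM in Ldh-positive cells against 194 CPM in Ldh-negative cells, and in Tind6 109 against 126 CPM, whereas in Tind3 it had 865 against 302 CPM. Thus 2 tumors went slightly the other way for GstD5, with log2 ratios of -0.12 in Tind4 and -0.20 in Tind6. The value of Tind6 rests on 10 and 16 UMIs. None went the other way for GstD2.

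Within the Epsilon class the neighbouring genes GstE7, GstE8 and GstE9 were higher in Ldh-positive cells. GstE9 had a log2 fold change of 1.77 ± 0.26 (SE, adjusted p = 2.34e-05, edgeR) and GstE8 one of 1.45 ± 0.29 (adjusted p = 0.000829), each higher in 5 of 6 tumors. In Tind3 GstE9 had 216 CPM in Ldh-positive cells and no UMI in Ldh-negative cells, so its ratio there has no fixed value. In Tind5 both genes were slightly lower in Ldh-positive cells, at 15.4 CPM against 17.5 CPM for GstE9 and 23.1 CPM against 27.6 CPM for GstE8. GstE7 was higher by 0.85 ± 0.25 in 5 of 6 tumors, all but Tind3 (adjusted p = 0.0203, edgeR), and GstE6 by 0.51 ± 0.17 (adjusted p = 0.0369, edgeR), and the call of GstE6 was lost in 4 of 6 fits that left out 1 tumor. GstE7 and GstE8 passed the filter in 3 of those 6 fits and GstE9 in 4, and each was called wherever it passed. These 3 genes passed it mainly through the Ldh-positive sums, of which 6, 5 and 5 reached the required level against 1, 4 and 2 of the Ldh-negative sums. In the fit without a filter their adjusted p was 0.0461, 2.39e-06 and 2.86e-10 (edgeR), and GstE6 was not called there (adjusted p = 0.101, edgeR).

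GstE12, an Epsilon gene that lies far from that cluster, went the other way. It had 125 CPM on average in Ldh-positive cells against 181 CPM in Ldh-negative cells, was lower in 5 of 6 tumors, and had a log2 fold change of -0.59 ± 0.17 (SE, adjusted p = 0.0164, edgeR). It was not called without Tind1 or without Tind2. GstE1, GstT1, GstS1, GstO2 and GstO3 did not pass the test, with log2 fold changes of 0.12 to 0.29. In the plot of ratios within tumors, the points of GstO2, GstS1 and GstT1 lie on both sides of 0.

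The number of members called higher depended on single tumors. It fell to 3 without Tind1 (GstD1, GstD2 and GstD3), to 4 without Tind2 (GstD1, GstD2, GstD9 and GstE9) and to 4 without Tind4 (GstD1, GstD2, GstD5 and GstD9), where 12, 13 and 12 members passed the filter. Of all genes tested in these fits, 130 of 2334 were higher without Tind1, 232 of 2614 without Tind2 and 287 of 2297 without Tind4. GstD1 and GstD2 were called in all 6 fits that left out 1 tumor. Without the tumor as a block, no member was called and 5 had an unadjusted p under 0.05, where the differences between tumors enter the spread. Median depth was alike in both classes except in Tind4, where Ldh-positive cells had 3302 UMIs against 2105 UMIs in Ldh-negative cells, and the part of depth in that tumor was not tested. All 11 listed glycolysis genes were higher in Ldh-positive cells, and of 5 tested stem cell and enteroblast markers Delta and esg, a transcription factor of progenitors, were lower. The 8 such markers summed to 352 to 971 CPM in Ldh-positive cells against 533 to 1165 CPM in Ldh-negative cells, lower in every tumor, the 10 enterocyte markers to 79.1 to 324 CPM against 129 to 504 CPM, and the 10 enteroendocrine markers to 0 to 779 CPM against 6.39 to 374 CPM, and their part in the results was not tested.

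**Figure D2:**
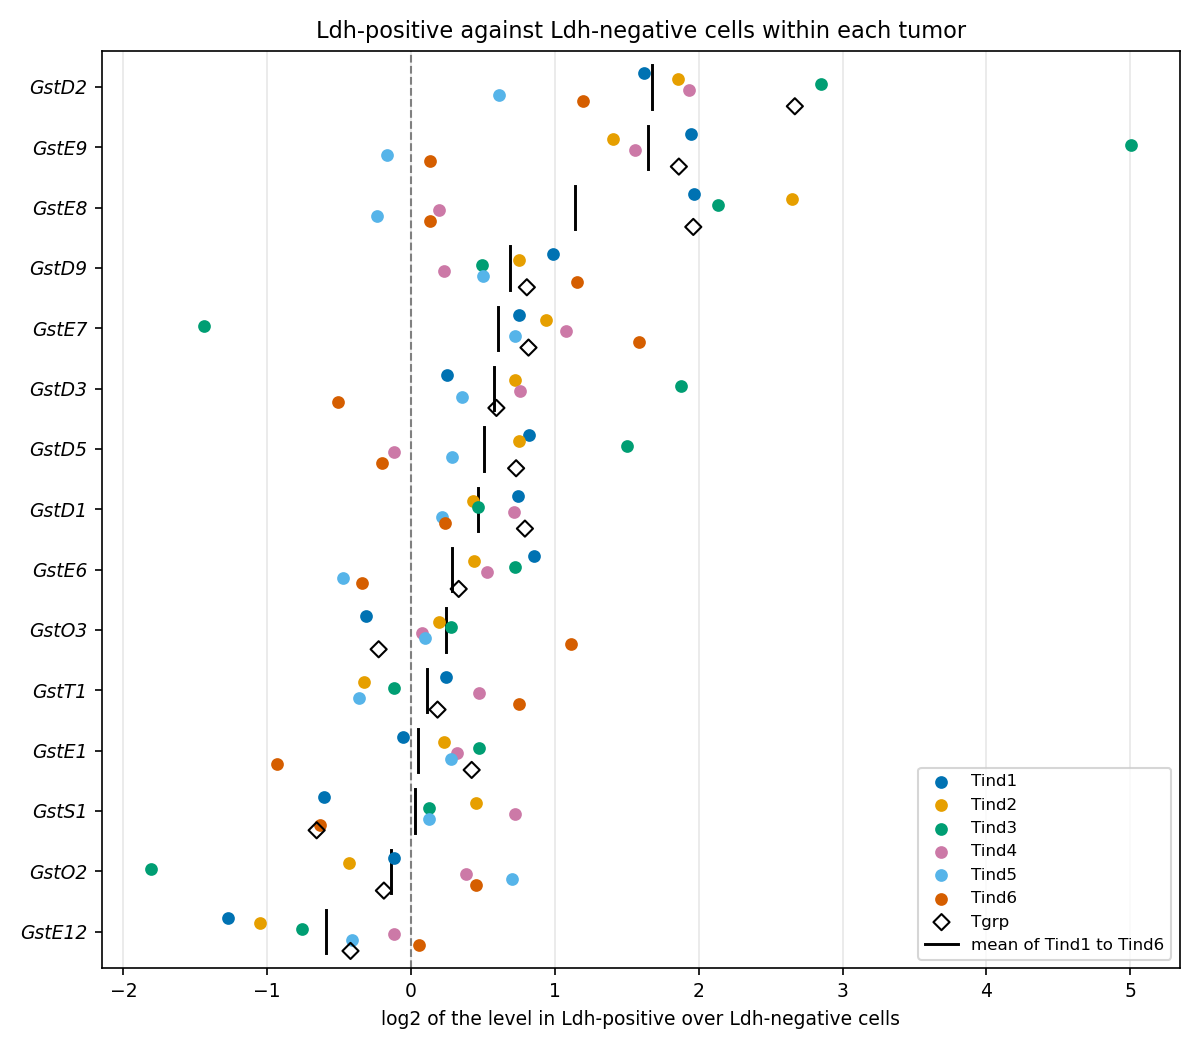
Log2 of the level in Ldh-positive over Ldh-negative cells for the 15 members, with 1 colored point per single tumor, an open diamond for Tgrp and a bar at the mean of Tind1 to Tind6. All 6 tumors lie right of 0 for GstD2, GstD1 and GstD9, and 5 of 6 lie left of 0 for GstE12.

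GstD2 and GstD5 were then compared as markers of cells. The log2 ratio of Ldh-positive to Ldh-negative cells was lower for GstD5 than for GstD2 in every tumor, by 0.81 in Tind1 and 1.11 in Tind2, by 1.35 in Tind3 and 2.05 in Tind4, and by 0.33 in Tind5 and 1.39 in Tind6. The mean difference, GstD5 minus GstD2, was -1.17 ± 0.58 (SD, n = 6, p = 0.03125, exact permutation of signs over tumors, two-sided, the smallest p that 6 tumors allow). Expressed as counts, Ldh-positive cells of Tind1 held 11.4 GstD2 UMIs for each GstD5 UMI, against 6.50 in Ldh-negative cells. In Tind4 the same ratio was 6.27 against 1.51, and in Tgrp 6.58 against 1.72. It was 0.423 against 0.336 in Tind5, where the change was least. In that tumor the ratios rest on 22 GstD2 and 52 GstD5 UMIs in Ldh-positive cells against 44 and 131 in Ldh-negative cells.

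Even so, GstD2 and GstD5 were found in the same cells more often than 2 independent genes would be. In Tind1 96 cells were positive for both, where the product of the separate shares gives 45.2. In Tind2 5 cells were positive for both, against 0.756 under independence, in Tind3 12 against 5.91, and in Tind4 8 against 2.89. In Tind5 2 cells were positive for both, against 1.24, in Tind6 2 against 0.824, and in Tgrp 21 against 11. The observed number was above the other in every library, although in Tind5 and Tind6 it rests on 2 cells. The mean log2 ratio of observed to independent numbers was 1.16 ± 0.54 (SD, n = 6 tumors, p = 0.03125, exact permutation of signs, two-sided). Adjusted over the 2 tests of this kind, both p-values remained 0.03125.

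The median full depth of cells positive for both genes was 1582 UMIs in Tind1, against 1776 in cells with GstD2 only, 1495 in cells with GstD5 only and 1746 in cells with neither, and in Tind4 it was 1330 UMIs against 2368, 3015 and 2384. In Tind3 cells with both had 568 UMIs, against 471 with GstD2 only, 492 with GstD5 only and 535 with neither. Without the deepest 10% of each library's cells, an alternative chosen after seeing the data, the mean log2 ratio of observed to independent numbers was 1.15. Doublets were not removed, and their part in these numbers was not tested. Most positive cells of either gene still lacked the other in the draw. Of the 6 tumors' cells 667 were positive for GstD2 only, 162 for GstD5 only and 125 for both.

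In 5 of 6 tumors, cells with GstD5 only had a smaller share of Ldh-positive cells than cells with GstD2 only. These shares were not tested over tumors, and each interval covers counting error within 1 tumor. In Tind1 22 of 56 GstD5-only cells were Ldh-positive (39.3%, exact 95% interval 26.5% to 53.2%), against 371 of 518 GstD2-only cells (71.6%, 67.5% to 75.5%). In Tind2 the numbers were 6 of 23 GstD5-only cells (26.1%, 10.2% to 48.4%) and 11 of 19 GstD2-only cells (57.9%, 33.5% to 79.7%). In Tind3 they were 1 of 12 GstD5-only cells (8.33%, 0.211% to 38.5%) and 26 of 40 GstD2-only cells (65.0%, 48.3% to 79.4%). Among these 3 tumors the intervals of the 2 classes were apart in Tind1 and Tind3 and overlapped in Tind2.

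The other tumors held fewer such cells. In Tind4 9 of 31 GstD5-only cells were Ldh-positive (29.0%, 14.2% to 48.0%), against 24 of 49 GstD2-only cells (49.0%, 34.4% to 63.7%). In Tind5 15 of 33 GstD5-only cells were Ldh-positive (45.5%, 28.1% to 63.6%), against 8 of 18 GstD2-only cells (44.4%, 21.5% to 69.2%). In Tind6 the numbers were 2 of 7 GstD5-only cells (28.6%, 3.67% to 71.0%) and 13 of 23 GstD2-only cells (56.5%, 34.5% to 76.8%). In Tind4, Tind5 and Tind6 the intervals of the 2 classes overlapped. Tind5 was the only tumor in which the GstD2-only share was not the larger one. GstD2-only cells had a larger share than all cells in every library. GstD5-only cells had a smaller share than all cells in Tind1, Tind2, Tind3 and Tind6 and a larger one in Tind4, Tind5 and Tgrp. However, GstD5-only cells hold no GstD2 UMI in the draw, and GstD2 was higher in Ldh-positive cells. Their share is thus lowered by the way they were chosen, and all cells are not an even reference for it. Over the 6 tumors the share averaged 29.5% ± 12.7 in GstD5-only cells and 57.4% ± 10.0 in GstD2-only cells (SD), and in Tgrp it was 30 of 110 GstD5-only cells (27.3%, 19.2% to 36.6%) against 118 of 225 GstD2-only cells (52.4%, 45.7% to 59.1%).

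**Figure D3:**
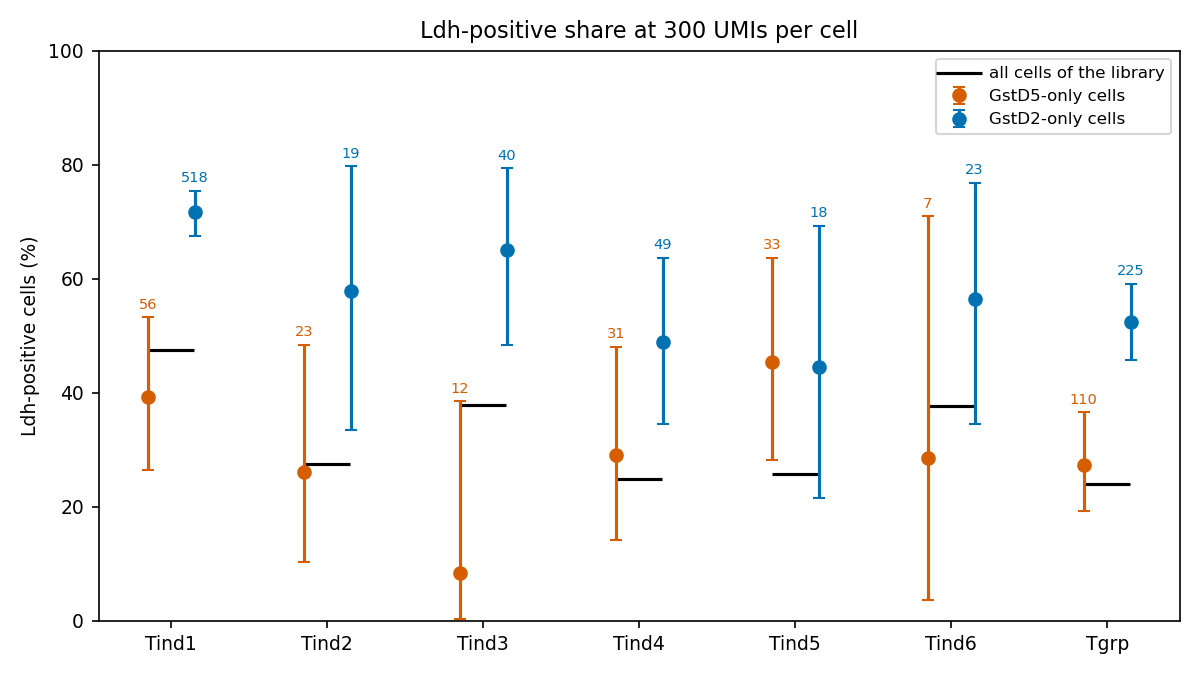
Share of Ldh-positive cells, in percent at 300 UMIs per cell, among cells with GstD5 only (orange) and cells with GstD2 only (blue) in each library, with exact 95% binomial intervals, the number of cells above each point and a black line at the share in all cells of the library. In Tind1 39.3% of GstD5-only and 71.6% of GstD2-only cells were Ldh-positive, and Tind5 is the only library in which the GstD2-only point is not the higher one.

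Summed per tumor, the Ldh level was lower in GstD5-only than in GstD2-only cells in 6 of 6 tumors, but barely in Tind4 (3319 against 3410 CPM). It averaged 2285 CPM against 5557 CPM, and the log2 fold change of -1.01 ± 0.26 missed the threshold (SE, adjusted p = 0.0547, edgeR). As with the shares, the classes were chosen by GstD2. The comparison is therefore not an even one for Ldh or for other genes that go with GstD2. This comparison had few cells, and only 279 genes and a single member, GstD1, passed its filter on low counts. GstD1 stood at 2230 CPM on average in GstD5-only cells against 3867 CPM in GstD2-only cells, lower in 5 of 6 tumors, with a log2 fold change of -0.62 ± 0.18 (adjusted p = 0.111, edgeR). No member was called in either direction (GstD1 alone had an unadjusted p under 0.05, and DESeq2 called none), where 0.717% of all genes tested were higher and 0% lower. At an unadjusted p under 0.05, 25 genes were higher and 16 lower, and DESeq2 called 6 higher and 7 lower. The 2 genes called were heat-shock genes, which encode chaperones: Hsp26 with 6007 CPM on average in GstD5-only cells against 3055 CPM in GstD2-only cells (adjusted p = 0.00827, edgeR) and Hsp83 with 2174 against 1129 CPM (adjusted p = 0.0323, edgeR), both higher in 6 of 6 tumors. Leaving out Tind1 or Tind3 gave 1 gene called and leaving out Tind4 gave 11. DESeq2 called both heat-shock genes, but neither was called without the filter or without the tumor as a block. Only 1 of them was called in another draw, over the drawn UMIs, or without Tind1, Tind3 or Tind5.

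The company that each of the 2 genes kept was read from cells with at least 1 UMI of it against all other cells of the tumor. For GstD2, 12 members other than itself passed the filter, and 5 were higher in GstD2-positive cells, where 8.06% of the 1961 genes tested were higher. GstD5 led, with 923 CPM in GstD2-positive cells of Tind1 against 138 CPM in GstD2-negative cells, 841 against 111 CPM in Tind2, 1357 against 273 CPM in Tind3, 498 against 163 CPM in Tind4, 1053 against 321 CPM in Tind5 and 361 against 99.3 CPM in Tind6. All 6 tumors showed the difference, and the GstD5 levels of the 2 classes did not overlap across tumors (log2 fold change 2.23 ± 0.19, SE, adjusted p = 2.58e-14, edgeR). GstD9 rose by 1.54 ± 0.24, GstD1 by 1.37 ± 0.12, GstD3 by 1.27 ± 0.23 and GstE9 by 1.23 ± 0.28. GstE9 passed the filter through the GstD2-positive sums (6 of 6 at the required level, against 2 of 6), and without a filter neither it nor GstD3 was called (adjusted p = 0.0719 and 0.0654, edgeR). GstE12 was lower again, by -0.97 ± 0.26 (adjusted p = 0.00601, edgeR), where 8.87% of all genes tested were lower, but it was not called without Tind1 or without a filter. Without Tind6, 8 of 15 members tested were higher, against 167 of all 3024 genes tested.

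For GstD5, 10 members other than itself passed the filter, and 6 were higher in GstD5-positive cells, where 8.04% of the 1753 genes tested were higher. None was lower, where 6.16% of all genes were (GstE12 had -0.45 ± 0.31, no member was lower at an unadjusted p under 0.05, and DESeq2 called 0 lower). GstD6, which lies next to GstD5, had 90.0 CPM on average in GstD5-positive cells against 22.4 CPM in GstD5-negative cells (log2 fold change 2.82 ± 0.41, SE, adjusted p = 3.39e-09, edgeR). It passed the filter through the GstD5-positive sums, of which 5 of 6 reached the required level against 1 of 6 GstD5-negative sums, and in the fit without a filter its adjusted p was 2.82e-10 (edgeR). GstD2 rose by 2.13 ± 0.24 in GstD5-positive cells, GstD3 by 1.76 ± 0.26, GstD9 by 1.16 ± 0.26, GstE6 by 0.93 ± 0.26 and GstD1 by 0.89 ± 0.22. GstD9 was higher in 5 of 6 tumors. Its log2 ratios per tumor averaged -0.04 ± 2.33 (SD, n = 6), with a lowest value of -4.68 in Tind6. There the 9 GstD5-positive cells held no GstD9 UMI among 5533 UMIs, so that ratio has no fixed value. The mean and SD rest on it. Without Tind1, 4 of 9 members tested were called higher (GstD1, GstD2, GstD3 and GstE6), against 54 of all 1265 genes tested. Without Tind2 GstD1 was not called, and without Tind3 GstD6 was not. Without a filter GstD1, GstD9 and GstE6 were not called (adjusted p = 0.295, 0.196 and 0.280, edgeR). Without the filter on low counts, the median log2 fold change over 33 members was 0.28 beside GstD2 and 0.07 beside GstD5, against -0.30 and -0.57 over all genes.

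Outside the family, CG16898, a gene whose role is not known, stood out in both comparisons. It had 183 CPM on average in GstD2-positive cells against 28.1 CPM in GstD2-negative cells (log2 fold change 2.61 ± 0.29, SE, adjusted p = 1.16e-10, edgeR), and 180 CPM in GstD5-positive cells against 33.6 CPM in GstD5-negative cells (2.57 ± 0.32, adjusted p = 2.15e-12, edgeR), higher in 6 of 6 tumors in each. Among genes that fell in every tumor, HmgD, which encodes a chromosomal high-mobility-group protein, and Sting, an innate immune sensor, were common to both comparisons. HmgD had 113 CPM on average in GstD2-positive cells against 296 CPM in GstD2-negative cells, and 87.1 CPM in GstD5-positive cells against 282 CPM in GstD5-negative cells. The largest falls beside GstD2 also included mgl, scramb2 and sbb, at -1.74, -1.50 and -1.39 on the log2 scale, and those beside GstD5 included Pgant6, fabp and LysX, at -1.86, -1.73 and -1.69. The largest rises beside GstD2 included lncRNA:CR44717, at 1.39, and those beside GstD5 included Nost, at 1.72. The 2 comparisons draw on the same cells and share most of their negative cells.

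Gclm and Trxr1 were higher beside both members. Of the 16 genes listed for glutathione synthesis and use, 7 were tested beside GstD2 and 3 were higher, with 0 lower. Gclm, the modifier subunit of the enzyme that limits glutathione synthesis, had 307 CPM on average in GstD2-positive cells against 135 CPM in GstD2-negative cells (log2 fold change 1.22 ± 0.24, SE, adjusted p = 0.000215, edgeR). Trxr1, thioredoxin reductase, rose by 0.55 ± 0.17, and Gtpx, a glutathione peroxidase homologue, by 0.81 ± 0.17. Beside GstD5 6 were tested, 3 were higher and 1 was lower. Gclm had 419 CPM on average in GstD5-positive cells against 138 CPM in GstD5-negative cells (1.72 ± 0.25, adjusted p = 1.34e-09, edgeR), and the catalytic subunit gene Gclc rose by 0.86 ± 0.28 and Trxr1 by 0.89 ± 0.21. Gtpx did not pass, at 0.15 ± 0.23, and Glo1, which clears methylglyoxal, a by-product of glycolysis, fell by 1.04 on the log2 scale. DESeq2 did not call Trxr1 beside GstD2, or Gclc and Glo1 beside GstD5.

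Of the 16 genes listed for CncC regulation and stress, 12 were tested beside either gene, and 3 were higher in each case. Gadd45, a stress-induced gene upstream of JNK and p38 signalling, had 667 CPM on average in GstD2-positive cells against 382 CPM in GstD2-negative cells, and 1097 CPM in GstD5-positive cells against 358 CPM in GstD5-negative cells (log2 fold changes 0.91 ± 0.18 and 1.57 ± 0.21, SE, both called by edgeR). Cat, catalase, rose in both, by 0.72 ± 0.24 and 0.75 ± 0.27. DESeq2 did not call Cat beside either gene. Prx2, a peroxiredoxin, rose beside GstD2 and Sod1, superoxide dismutase, fell there, by 0.72 on the log2 scale, a call that DESeq2 did not make. The third gene beside GstD5 was puc, a phosphatase that is both target and brake of JNK, at 0.98 ± 0.25, while beside GstD2 it had 0.40 ± 0.22 (adjusted p = 0.220, edgeR). MRP, an exporter of glutathione conjugates and the only gene called of 2 tested from the list for phase I and transport, rose by 0.59 ± 0.21 beside GstD2 and by 1.12 ± 0.23 beside GstD5, and DESeq2 called it beside GstD5 alone.

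All 11 listed glycolysis genes were tested in both comparisons. Beside GstD2 9 were higher (6 with DESeq2), with Ald1, aldolase, at 2237 CPM on average in GstD2-positive cells against 1454 CPM in GstD2-negative cells and Gapdh2 at 1725 against 972 CPM, and the median log2 fold change of the list was 0.59. Beside GstD5 only Hex-A, hexokinase, was higher (0.61 ± 0.22, SE, adjusted p = 0.0408, edgeR), Ald1 stood at 1554 CPM in GstD5-positive cells against 1603 CPM in GstD5-negative cells, and the median was 0.06. Ldh itself had a log2 fold change of 1.28 ± 0.12 beside GstD2 (adjusted p = 8.39e-14, edgeR) and of 0.45 ± 0.21 beside GstD5 (adjusted p = 0.134, edgeR). In the direct comparison of GstD5-only with GstD2-only cells, 8 of the list were tested with a median log2 fold change of -0.49, and edgeR called 0, with 3 at an unadjusted p under 0.05, while DESeq2 called 2 lower. Ald1 was lower in 6 of 6 tumors in that comparison (log2 fold change -0.61 ± 0.18, adjusted p = 0.111, edgeR).

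**Figure D4:**
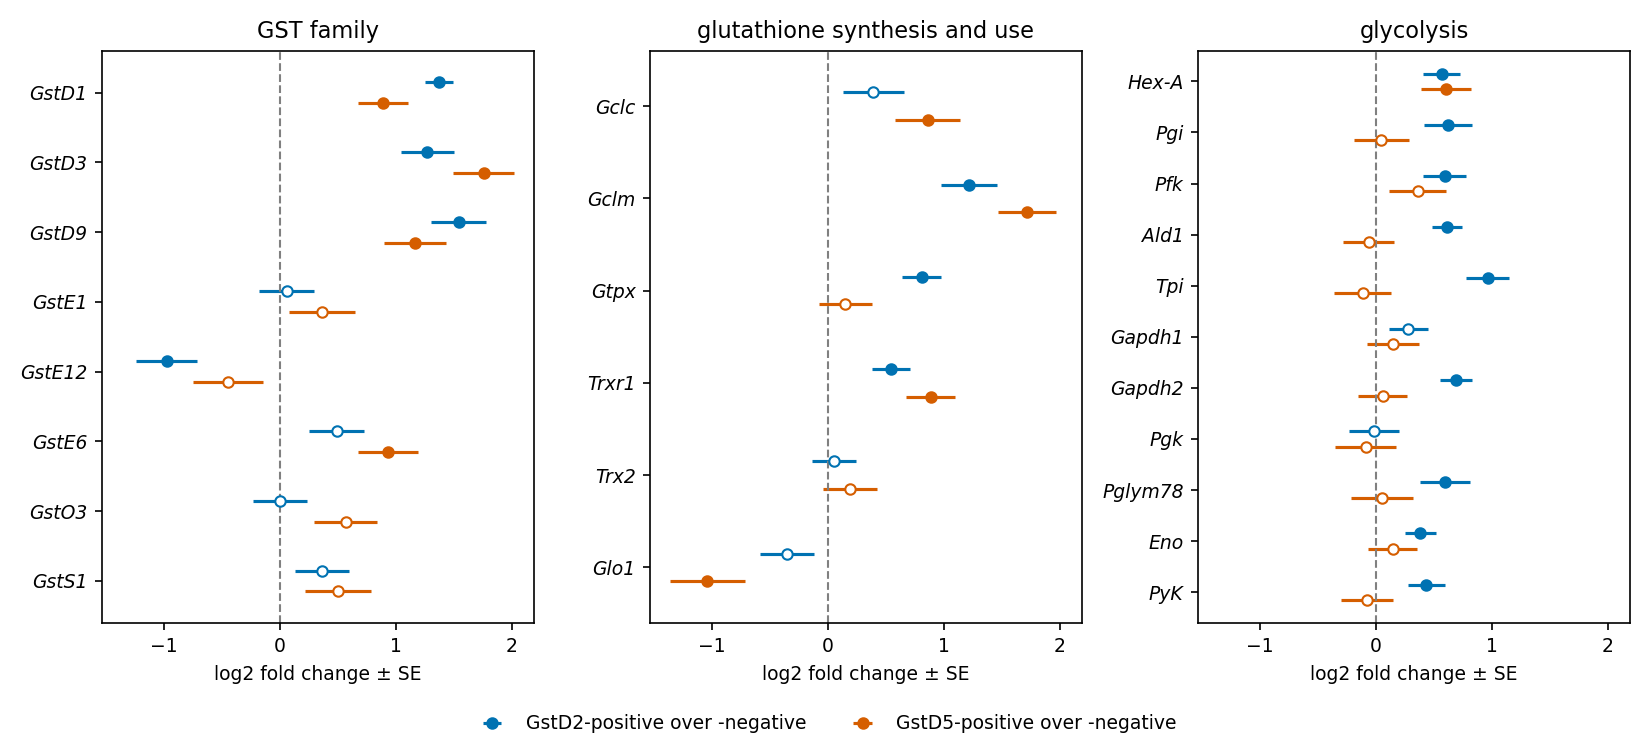
Log2 fold change with its SE between GstD2-positive and GstD2-negative cells (blue) and between GstD5-positive and GstD5-negative cells (orange), for genes tested in both comparisons, with filled points at an adjusted p under 0.05. Gclm is filled in both colors at 1.22 and 1.72, while 9 of 11 glycolysis genes are filled for GstD2 and only Hex-A for GstD5.

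Of the 8 stem cell and enteroblast genes, 5 were tested beside GstD2, and Delta, the Notch ligand of stem cells, and mira, an adaptor of asymmetric division, were lower. Delta had 78.5 CPM on average in GstD2-positive cells against 180 CPM in GstD2-negative cells, and 87.8 CPM in GstD5-positive cells against 170 CPM in GstD5-negative cells. Beside GstD5 4 were tested, Delta and mira were again lower, and E(spl)mbeta-HLH, a Notch target, was higher (0.73 ± 0.26, SE, adjusted p = 0.0403, edgeR). DESeq2 called Delta beside GstD2 and none of the other calls in this list. The summed level of the 10 enterocyte markers was 30.0 to 209 CPM in GstD2-positive cells of the 6 tumors against 118 to 398 CPM in GstD2-negative cells, and 31.0 to 211 CPM in GstD5-positive cells against 112 to 399 CPM in GstD5-negative cells, and LManVI was at 0 throughout. Beside GstD2 the enterocyte sum was higher in Tind3, Tind4 and Tind6 and lower in the other tumors, and the only enterocyte gene tested, Myo31DF, was not called beside either gene. The 10 enteroendocrine markers summed to 0 to 60.2 CPM in GstD2-positive cells against 9.36 to 503 CPM in GstD2-negative cells. Beside GstD5 they summed to 0 CPM in positive cells of Tind2, Tind3, Tind4 and Tind6, to 9.07 CPM in Tind1 and to 2014 CPM in Tind5, against 10.2 to 503 CPM in GstD5-negative cells and 278 CPM in those of Tind5. The part of these markers in the results was not tested.

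Whether the family follows the enterocyte markers nub and Myo31DF was asked directly. Cells with a UMI of either gene were 2.92% to 6.64% of the 6 tumors, and 11 members passed the filter. No member was higher, where 2.60% of the 1613 genes tested were, and none was lower, where 1.30% were (1 member had an unadjusted p under 0.05, and DESeq2 called none). The member nearest to the threshold was GstD2, with 949 CPM on average in marker-positive cells against 1167 CPM in marker-negative cells, a log2 fold change of -0.63 ± 0.24 (SE, adjusted p = 0.135, edgeR) and lower values in 5 of 6 tumors. GstD5 had -0.14 ± 0.26 and GstD1 -0.19 ± 0.19. The tumors held 10 to 63 positive cells each. With Tgrp added as another pair, GstD2 was called lower.

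All pairs of the 15 members were then examined for shared cells. Of 105 pairs, 56 had at least 5 cells expected in both under independence over the 6 tumors, and the median ratio of observed to expected was 1.23. In 8 pairs the observed number was above the expected one in all 6 tumors: GstD1 with GstD2, GstD3, GstD5, GstD9 and GstO3, GstD2 with GstD5 and GstE8, and GstD3 with GstD5. The highest ratio, 2.72, was that of GstD3 with GstD5, with 26 cells against 9.54 expected. For GstD1 with GstD2 541 cells were positive for both, against 364 expected. In 2 pairs the observed number was below the expected one in all 6 tumors. They were GstE6 with GstE12, with 4 cells against 8.35 expected, and GstD2 with GstO2, with 9 against 13.4 expected. In Tgrp GstE6 with GstE12 was on the other side, with 7 cells against 5.64. A tumor with no shared cell counts as below whatever it expected, so at such low counts this direction says little. The counts of all pairs are a description of cells that share their library and depth, with no test. Pairs of genes outside the family were not counted, so whether such numbers are particular to the family was not tested.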

How the data were processed

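Single-cell 3′ libraries of Drosophila midgut tumors (6 of 1 tumor each and 1 of 6 tumors) were counted by the authors with Cell Ranger 6.0.1, per the labels, and the deposited matrices hold raw counts of UMIs per gene and cell. Gene symbols came from a FlyBase table, which matched 17556 of 17619 identifiers. Doublets were not removed.

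Classes of cells were set in 300 drawn UMIs per cell (seed 1), full counts were summed per tumor and class with at least 5 cells, and the sums were tested in R 4.3.3 by the quasi-likelihood fit of edgeR 4.0.16, with TMM scaling and genes chosen by filterByExpr. The genes that define a class were left out of its comparison. The SE given with a log2 fold change of edgeR was worked back from the test statistic, so it can differ from what the p-value implies. Since each tumor gave cells of both classes, its number pairs them and was kept as a block. Tgrp has no replicate and entered no test. Ratios per tumor share 1 UMI between the classes, and co-detection adds 0.5 cells, before logs. Values over 6 tumors were tested by exact permutation of signs, and other statistics used Python 3.11.15 with scipy 1.17.1. The labels name no batches of libraries. The p-values of the sign permutations measure the spread between these tumors. In the edgeR fits the spread of each gene is drawn towards a spread shared by many genes. A p-value of edgeR therefore does not measure the gene's own spread between tumors alone, and a gene can be called although its tumors disagree.

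On simulated counts with known 2-fold changes, the edgeR test recovered 96.5% of changed genes for Ldh (3162 genes), 88.3% for GstD2 (1962), 69.0% for GstD5 (1754), 85.7% for GstD5-only against GstD2-only cells (281) and 66.9% for the enterocyte markers (1614). False calls were 5.39%, 2.81%, 5.51%, 14.3% and 1.83% of the calls.

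The members, the gene lists (110 genes, 6 under newer symbols) and the tests were chosen with earlier results of these data known. Members with at least 300 UMIs over the 7 libraries are given with values, the others by range. Genes outside the family, beside list genes, are those found among the 5 largest rises and 5 largest falls, members included in the ranking. Only genes called and moved the same way in every tumor were ranked. The alternatives were no block, DESeq2 1.42.0, no filter on low counts, sums over the drawn UMIs, 500 drawn UMIs, another draw, Tgrp as another pair, leaving out Tind5 cells with barcodes of Tind4, and leaving out each tumor. For the 2 values per tumor, another number added before the log was tried.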

Additional observations from a re-analysis of the deposited data

Results flagged for a closer look

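Of 39 sets of 6 tumor values examined (levels of members and classes, ratios of Ldh-positive to Ldh-negative cells and the 2 measures of GstD2 and GstD5), 3 held a tumor whose gap to its neighbour was large for the range of the set, where chance gives about 1 set in 20. GstE6 stood at 93.7 CPM in Tind2, below the 167 to 208 CPM of the other tumors. GstE7 stood at 83.1 CPM in Tind3, above the 19.9 to 31.9 CPM of the other tumors. The log2 ratio of GstE7 in Ldh-positive over Ldh-negative cells was -1.44 in Tind3, against 0.73 to 1.58 in the other tumors. That value rests on 2 GstE7 UMIs in Ldh-positive and 11 in Ldh-negative cells of Tind3. On these few UMIs, the tumor with most GstE7 was also the only one with less of it in Ldh-positive cells. Tind3 is the shallowest library, with 180582 UMIs in its kept cells.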

How the results depend on the processing

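No called result changed direction, but members that were not called did, such as GstS1 in Ldh-positive cells (0.12 against -0.15 without Tind4), GstE1 beside GstD2 (0.06 against -0.14 without the filter) and GstD3 by enterocyte markers (-0.26 against 0.11 in the draw of 500 UMIs). The mean log2 ratio of co-detection ranged over 0.96 to 1.28 when 1 tumor was left out, and the GstD5 minus GstD2 difference over -1.34 to -1.0, each with an exact permutation p of 0.0625, the smallest that 5 tumors allow, and other settings kept it at 0.03125. Without the tumor as a replicate block, 0 members were higher and 0 lower in Ldh-positive cells (26 genes in all), 2 higher and 0 lower in GstD2-positive cells (7 genes), 2 higher in GstD5-positive cells (26 genes), and 0 genes were called between GstD5-only and GstD2-only cells or by enterocyte markers. With DESeq2, 0 members were lower in Ldh-positive cells (322 genes in all) and 0 in GstD2-positive cells (136 genes), and 121, 13 and 25 genes were called for GstD5, GstD5-only against GstD2-only cells and the enterocyte markers. Sums over the drawn UMIs gave 4 members higher and 0 lower for Ldh (111 genes), 3 higher and 0 lower for GstD2 (73 genes), 2 higher for GstD5 (55 genes), 1 lower in GstD5-only cells (GstD1, 6 genes) and 11 genes for the enterocyte markers, where 118 to 706 genes passed the filter. With Tgrp as another pair 902, 658, 417, 17 and 126 genes were called in the 5 comparisons, 8 members were higher in GstD2-positive cells, 1 was lower in GstD5-only cells (GstD1) and 1 in marker-positive cells (GstD2).

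Without the filter 0 members were lower in GstD2-positive cells (169 genes) and 15 genes were called between GstD5-only and GstD2-only cells. A draw of 500 UMIs gave 0 members lower in Ldh-positive cells and 12 genes between GstD5-only and GstD2-only cells, and another draw gave 1 member lower in GstD5-positive cells (GstE12) and 7 genes between GstD5-only and GstD2-only cells. With 1 tumor left out, members higher ranged over 3 to 9 for Ldh, 4 to 8 for GstD2 and 4 to 8 for GstD5, and members lower over 0 to 1 for Ldh and for GstD2. All genes called then ranged over 171 to 521 for Ldh, 52 to 339 for GstD2, 88 to 261 for GstD5, 1 to 11 for GstD5-only against GstD2-only cells and 32 to 65 for the enterocyte markers. The cause was not tested. Of the genes called in Ldh-positive cells 66.2% were higher, against 51.5% without the filter and 56% with Tgrp. For GstD2 the share was 47.6%, against 61.0% with DESeq2, 35.5% without the filter and 71.2% over drawn UMIs, for GstD5 56.6%, against 34.6% without the filter, and for the enterocyte markers 66.7%, against 92.0% with DESeq2 and 90.9% over drawn UMIs. Depth limits GstD5, since positive cells rest on few UMIs, and shallow libraries (Tind3, Tind5 and Tind6) limit every share of cells.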
